A study of Rattus norvegicus with 6 samples.

Results

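The genes described here encode P-type ATPases and the FXYD proteins that regulate one of them. They were chosen by a rule on gene symbols, set with earlier results of these data known. The table of the series lists 14607 genes, and 37 of them matched the rule: 4 α subunits (Atp1a) and 4 β subunits (Atp1b) of the Na,K-ATPase, 4 FXYD genes, 4 plasma membrane calcium pumps (Atp2b), 1 secretory pathway calcium pump (Atp2c1), 2 copper pumps (Atp7), 13 lipid flippases of the P4 class (Atp8 to Atp11) and 5 P5 ATPases (Atp13a). A further 6 rat genes that the rule would take, Atp2c2, Atp8a2, Atp9a, Fxyd2, Fxyd3 and Fxyd4, have no row and were not analysed here. The cells came from the cortex of male Sprague-Dawley rats aged 4 to 5 weeks. No treatment is named for them. Vascular smooth muscle cells (VSMCs) were sorted positively with a lectin from arterioles held back by a mesh, after endothelial cells and microglia had been removed. Mid-capillary pericytes (mcPCs) were the cells of the filtrate that carried none of the antibodies used to remove endothelial cells, microglia, astrocytes and oligodendrocytes. Polyadenylated RNA of 3 samples of each cell type was sequenced, each sample from pooled rats. Each of 3 codes in the sample names (DN, DL and DK) is shared by a VSMC and an mcPC sample.

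P-type ATPases are membrane pumps that transfer the phosphate of ATP onto an aspartate of their own chain and move their substrate as the chain changes shape. The Na,K-ATPase sets the sodium and potassium gradients of every animal cell, and in vessels this gradient also drives the exchange of calcium. Calcium pumps of the plasma membrane remove calcium after contraction, and P4 flippases move phospholipids to the cytoplasmic leaflet. P5 ATPases serve the endoplasmic reticulum (Atp13a1) or endosomes and lysosomes, where Atp13a2 and Atp13a3 are known to export polyamines.

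All values are the authors' means of a cell type, because the table holds no value of a single sample. No SD or n over samples can therefore be given, no difference has a replicate check and no test was run. Abundance is given in TPM, transcripts scaled to the same total in each sample, which accounts for transcript length and allows genes to be compared within a cell type. The cell types were compared by the log2 ratio of mean normalized counts, mcPC over VSMC, which is positive for genes higher in mcPCs. Its 95% interval is an exact binomial (Clopper-Pearson) interval on the reads of the 3 samples, and it covers counting error only. The mean depth was 62.0 M assigned reads in the VSMC libraries against 48.0 M in those of mcPCs. Values also depend on scale, because 20 listed erythrocyte genes held 66.9% of the TPM in mcPCs and 0.876% in VSMCs. The TPM ratio of the median gene was therefore -1.79 on the log2 scale, against 0.01 for normalized counts.

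The labels of the cells were checked with marker genes. The 5 smooth muscle markers (Acta2, Myh11, Tagln, Cnn1 and Des) summed to 44404 TPM in VSMCs against 60.9 in mcPCs, and the 5 pericyte markers (Kcnj8, Abcc9, Ggt1, Vtn and Anpep) to 590 and 2386 TPM. Markers of other cells were listed as well. Of 12 endothelial markers 10 had a row and 7 of these were at least 2-fold higher in mcPCs, with Cldn5 at 0.643 TPM in VSMCs against 15.4 in mcPCs. The listed neuronal markers (3 of 6) summed to 0.687 and 19.8 TPM, the microglial or macrophage markers (3 of 6) to 0.498 and 7.86 TPM, and the astrocyte markers (5 of 6) to 14.2 and 20.1 TPM. Oligodendrocyte markers (5 of 6) summed to 6.71 and 7.54 TPM, fibroblast markers (4 of 5) to 138 and 54.3 TPM, and the 4 markers of all mural cells to 9421 and 2462 TPM. These sums are on the TPM scale, which lowers most genes in mcPCs. By normalized counts 4 of the 5 oligodendrocyte markers (median log2 ratio 1.68), 3 of the 4 fibroblast markers (1.58), 4 of the 5 astrocyte markers (3.27) and all 3 neuronal markers (4.77) were at least 2-fold higher in mcPCs. Only genes with a read in every sample have a row, so no marker with a row could be at 0. Markers without a row were not analysed here. In bulk samples such as these, more cells of a type and more RNA per cell cannot be told apart.

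The family was divided between the cell types. Of the 37 members, 14 were at least 2-fold higher in mcPCs, where 22.0% of all listed genes were, and 8 were at least 2-fold higher in VSMCs, where 13.9% of all listed genes were. The other 15 lay within 2-fold. The median log2 ratio of the members was 0.32. Most of the members higher in mcPCs were scarce transcripts, since 9 of the 14 stayed under 5 TPM in both cell types. Of all listed genes under that level, 46.3% were at least 2-fold higher in mcPCs, so that direction was common among scarce genes. In the other direction it was 1 of the 12 scarce members and 7.93% of such genes. Among the 25 members that reached 5 TPM in either cell type, 5 were higher in mcPCs and 7 in VSMCs, against 10.5% and 16.8% of all genes at that level. Among the 5 were Atp13a5, Atp13a4, Fxyd5 and Fxyd6. The 7 were Atp1b1, Atp2b4, Atp10a, Fxyd1, Fxyd7, Atp2b1 and Atp13a3. At 4-fold, 9 members were higher in mcPCs, as were 12.4% of all listed genes, and 5 in VSMCs, as were 5.72%. With the whole counting interval required to lie beyond 2-fold, 12 members were higher in mcPCs, against 18.7% of all listed genes, and 7 in VSMCs, against 11.9%.

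**Figure D1:**
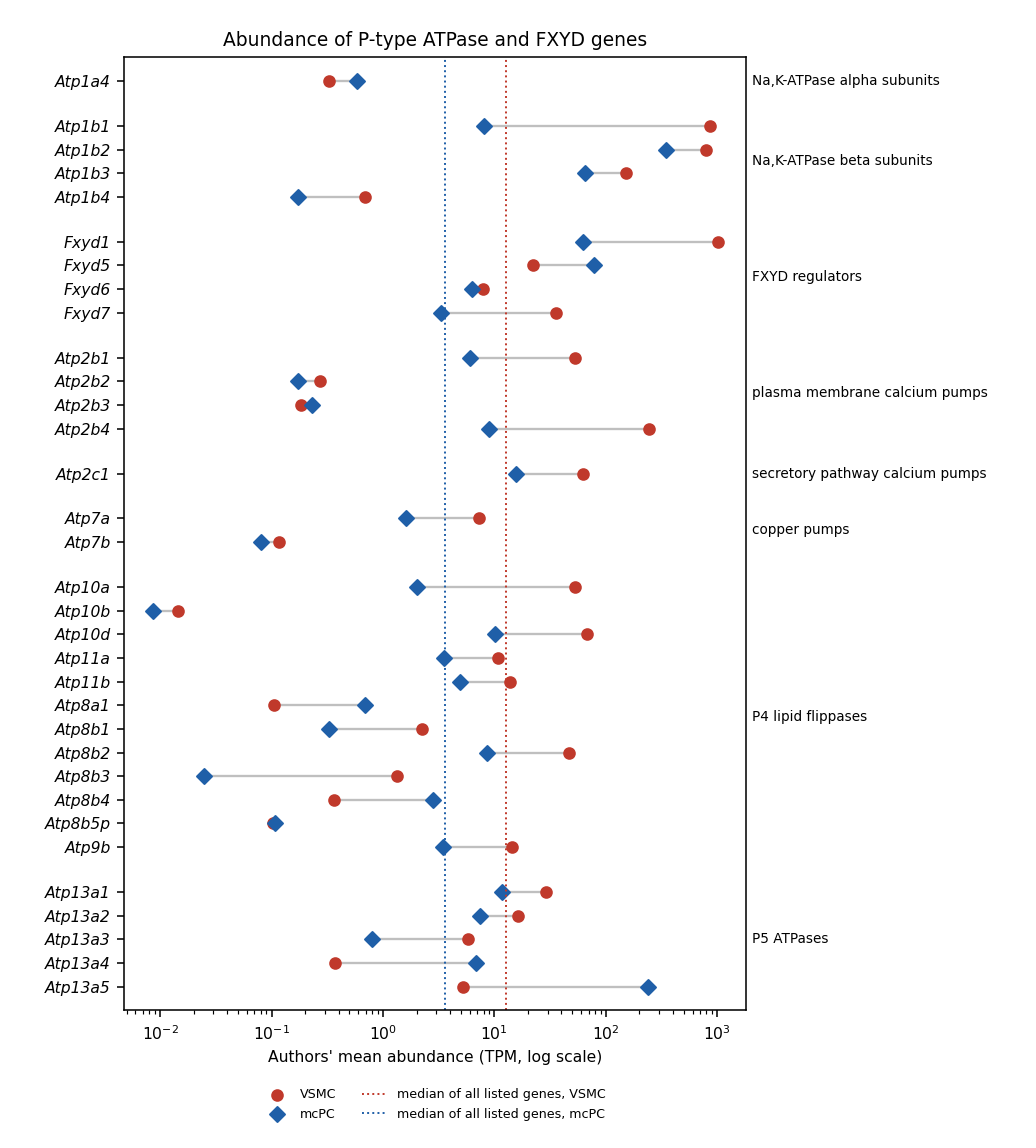
Authors' mean abundance (TPM, log axis) of 33 members in VSMCs (red circles) and mcPCs (blue diamonds), grouped by class, with a grey line joining the means of a gene and dotted lines at the median of all listed genes (12.7 TPM in VSMCs, 3.59 TPM in mcPCs). Most members shift left in mcPCs as the median gene does, whereas Atp13a5 moves from 5.27 to 239 TPM and Fxyd5 from 22.4 to 78.4 TPM.

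**Figure D2:**
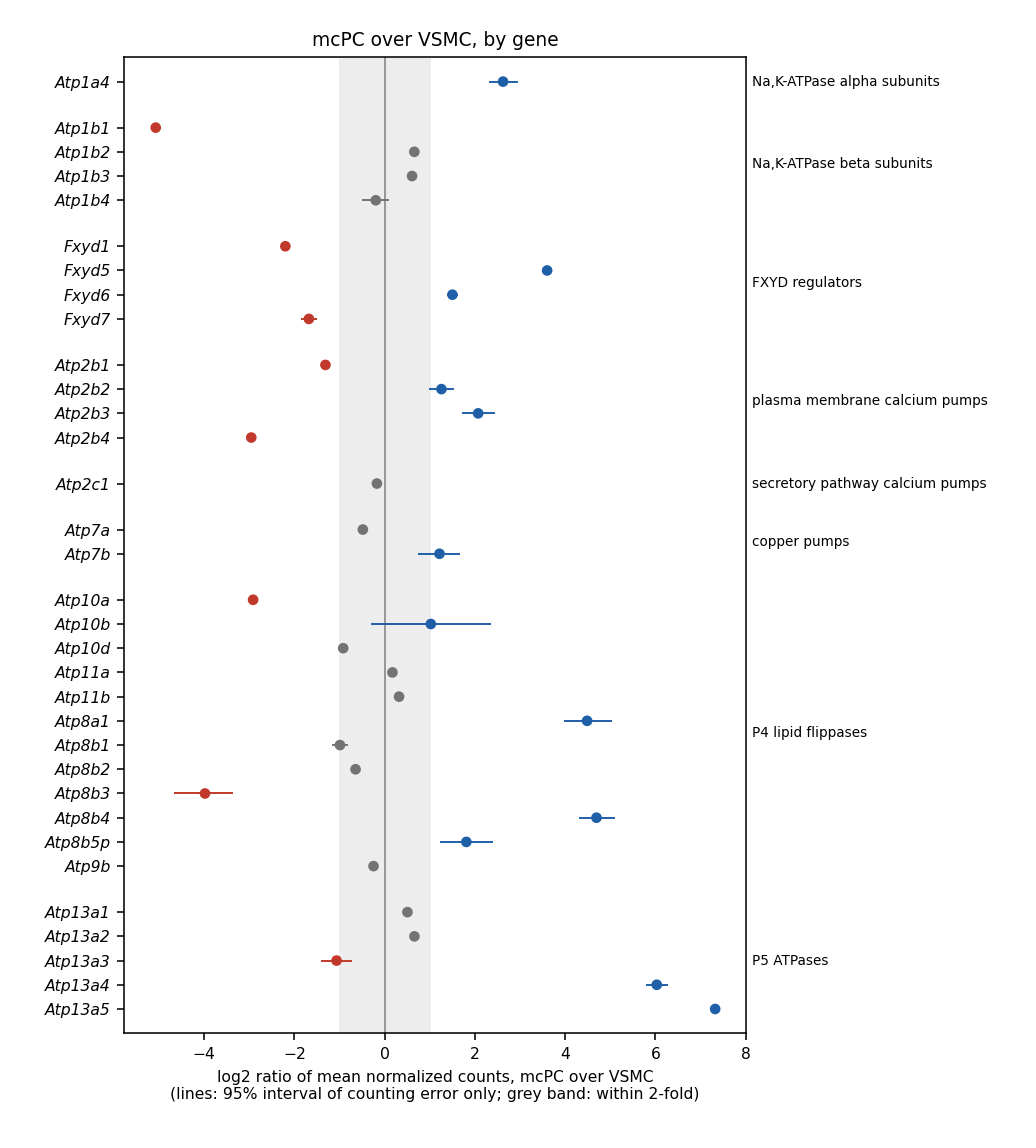
log2 ratio of mean normalized counts, mcPC over VSMC, of 33 members, with horizontal lines for the 95% interval of counting error. Blue marks 12 members at least 2-fold higher in mcPCs, red the 8 at least 2-fold higher in VSMCs and grey 13 within 2-fold (shaded band), and the values run from -5.08 for Atp1b1 to 7.33 for Atp13a5.

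**Figure D3:**
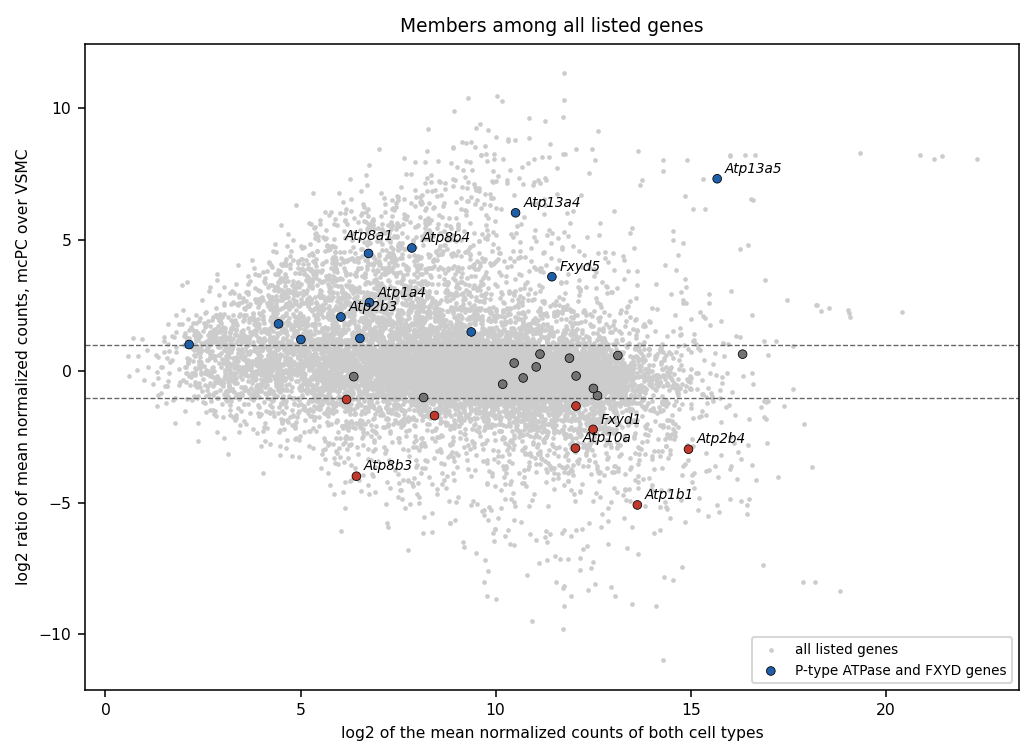
log2 ratio of mean normalized counts (vertical axis) against the log2 mean of both cell types (horizontal axis) for all 14607 listed genes (light grey) and 33 members, coloured by direction (blue higher in mcPCs, red higher in VSMCs, dark grey within 2-fold). Members at least 4-fold apart are named, dashed lines mark 2-fold, and Atp13a5 lies at the upper right, among the abundant genes.

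The largest difference of the family was that of Atp13a5 (ENSRNOG00000024127), an orphan P5 ATPase known as a marker of brain pericytes. Its mean abundance was 5.27 TPM in VSMCs against 239 in mcPCs, from 2707 and 227210 reads over the 3 samples. Mean normalized counts were 649 in VSMCs and 104265 in mcPCs, a 161-fold difference (log2 ratio 7.33, counting interval 7.27 to 7.38). In mcPCs its TPM was higher than that of 99.0% of the listed genes, and in VSMCs than that of 34.7%. Its ratio ranked 84 from the highest among all listed genes, and 19 among the genes with at least 0.8 TPM in VSMCs.

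Atp13a4 (ENSRNOG00000001714), its closest neighbour in the genome, was lower in abundance and differed in the same direction. It had 0.374 TPM in VSMCs against 6.79 in mcPCs, and normalized counts were 65.4-fold higher in mcPCs (log2 ratio 6.03, interval 5.82 to 6.25). In RefSeq (GRCr8) no protein-coding gene lies between Atp13a4 and Atp13a5, and 7 lie between Atp13a3 and Atp13a4. Atp13a3, a polyamine transporter of endosomes, went the other way, with 5.81 TPM in VSMCs against 0.798 in mcPCs (log2 ratio -1.07, interval -1.39 to -0.75). Its row rests on an effective length of 583 bases and on 105 reads in mcPCs, whereas the effective lengths of the other 4 genes of the class lie between 3682 and 4257 bases. Counts scaled without erythrocyte genes gave -0.86 for Atp13a3, which is within 2-fold.

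The remaining P5 genes are broadly used and differed little. Atp13a1, which removes misplaced membrane proteins from the endoplasmic reticulum, had 28.8 and 11.7 TPM (log2 ratio 0.50), and Atp13a2, the lysosomal polyamine exporter, 16.4 and 7.50 TPM (log2 ratio 0.66). The make-up of the class differed accordingly. Atp13a1 supplied 50.8% of the summed TPM of the P5 genes in VSMCs and 4.40% in mcPCs, and Atp13a5 9.32% in VSMCs and 89.9% in mcPCs. In mcPCs Atp13a5 was 20.4 times as abundant as Atp13a1. The pooled normalized counts per kilobase of the class were 16.6-fold higher in mcPCs. Of the 5 astrocyte markers with a row, 4 were at least 2-fold higher in mcPCs, as were 22.0% of all listed genes. Slc1a3, which encodes the GLAST antigen used to remove astrocytes, was the furthest, at 0.306 TPM in VSMCs and 12.7 in mcPCs. Aldoc lay within 2-fold (log2 ratio 0.16), and Aqp4 and Gfap had only 0.0865 and 0.270 TPM in mcPCs. The part of these markers in the difference of Atp13a4 was not tested.

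The sequence before the start of transcription is shown for members that were at least 4-fold apart and reached 5 TPM. Each also has a single start in the promoter table near the outer end of the gene. This sets a gene higher in mcPCs beside a pair higher in VSMCs. Each run holds the 250 bases before the start, 5′ to 3′, from RefSeq promoters of GRCr8. Capitals mark matches to the motifs searched on both strands, which were the CArG box bound by serum response factor in smooth muscle genes, TGGGAA for the core bound by the Notch effector RBPJ, GGGCGG for the GC box of many promoters, and TATAAA for the box bound by the TATA-binding protein.
Atp13a5 (chr11:84880980-84881229, plus strand): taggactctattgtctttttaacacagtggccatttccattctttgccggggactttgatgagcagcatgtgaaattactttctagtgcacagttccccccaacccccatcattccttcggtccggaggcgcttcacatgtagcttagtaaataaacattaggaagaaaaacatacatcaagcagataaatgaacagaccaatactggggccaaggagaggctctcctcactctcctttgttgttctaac
Fxyd1 (chr1:95418581-95418830, minus strand): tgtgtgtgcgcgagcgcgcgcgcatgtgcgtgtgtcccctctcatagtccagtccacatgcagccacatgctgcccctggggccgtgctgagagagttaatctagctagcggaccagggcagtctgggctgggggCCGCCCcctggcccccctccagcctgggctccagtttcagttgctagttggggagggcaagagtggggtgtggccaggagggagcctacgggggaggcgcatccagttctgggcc
Atp10a (chr1:118692228-118692477, plus strand): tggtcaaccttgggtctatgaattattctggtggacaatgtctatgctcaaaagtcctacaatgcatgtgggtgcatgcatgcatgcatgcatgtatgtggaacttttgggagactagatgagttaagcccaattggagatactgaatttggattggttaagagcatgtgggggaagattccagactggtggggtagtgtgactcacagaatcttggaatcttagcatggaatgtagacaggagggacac
Only Fxyd1 held a match, a GC box on the opposite strand at 115 to 110 bases before the start. Of the 33469 windows of this length in the table, 1.50% held a CArG box, 22.1% the RBPJ core, 30.5% the GC box and 12.9% the last motif. Of the 28 members with a window, 15 held the GC box, 5 the RBPJ core, 3 the last motif and 0 a CArG box. A member counts here if any of its windows matched, and some have several (7 for Atp8b4). These counts per gene are therefore not comparable with the shares per window. These are matches of letters in short windows and say nothing of binding.

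Atp1a4, a catalytic α chain of the Na,K-ATPase known from sperm, was scarce and higher in mcPCs. It had 0.329 and 0.587 TPM, from 126 and 427 reads (log2 ratio 2.62, interval 2.34 to 2.93). On the TPM ratio as it stands its log2 ratio was 0.84.

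The β subunits, which carry the α chain to the membrane, diverged through 1 gene. Atp1b1 (ENSRNOG00000002934) had 869 TPM in VSMCs against 8.04 in mcPCs. Normalized counts were 24680 and 731, 33.8-fold higher in VSMCs (log2 ratio -5.08, interval -5.15 to -5.01), the largest difference of the family in that direction. In VSMCs Atp1b1 was above 98.8% of the listed genes, and in mcPCs above 70.6%. Atp1b2, the isoform typical of glia, was abundant in both, with 789 and 349 TPM (log2 ratio 0.66, interval 0.65 to 0.67), and Atp1b3 had 153 and 65.6 TPM (log2 ratio 0.61, interval 0.58 to 0.63).

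The β pool therefore held a like amount of Atp1b1 and Atp1b2 in VSMCs (48.0% and 43.6% of the summed TPM), whereas in mcPCs Atp1b2 held 82.5% and Atp1b1 1.90%. Taken over the class, normalized counts per kilobase of β genes were 1.23-fold higher in VSMCs. Atp1b4, a muscle gene that is no longer a pump subunit in mammals, stayed under 0.7 TPM in both.

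**Figure D4:**
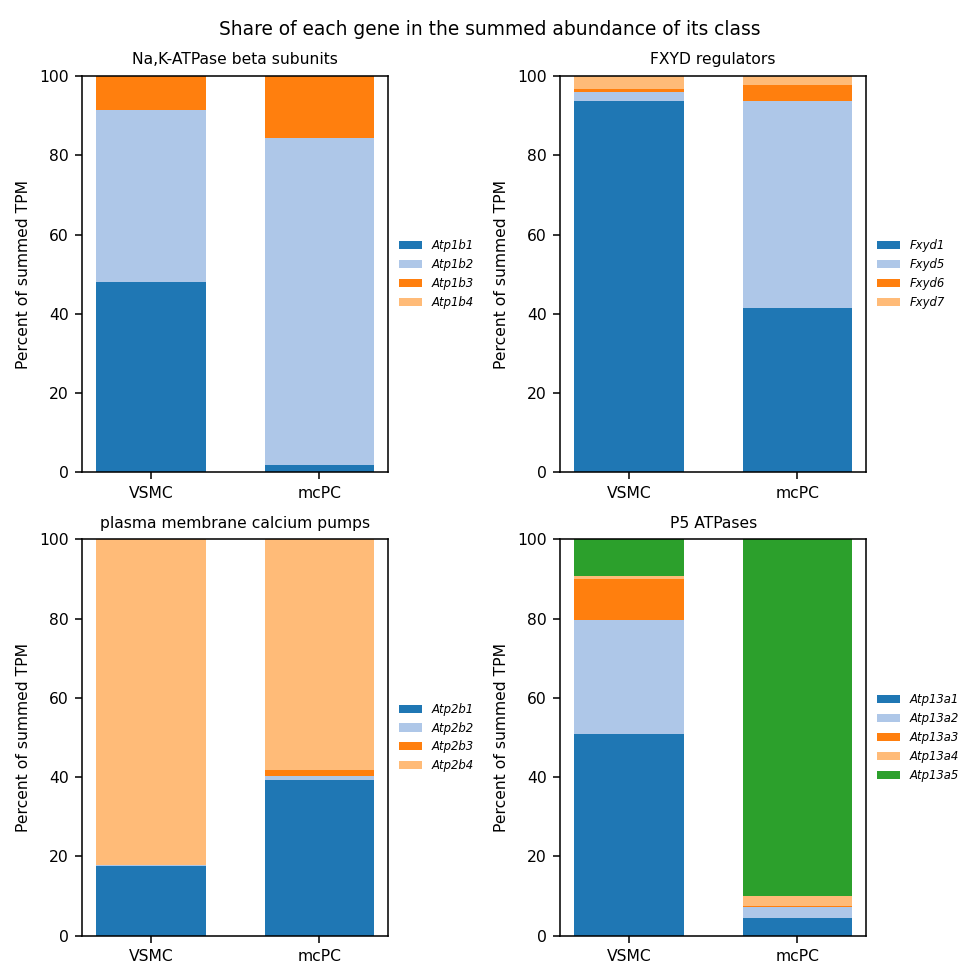
Stacked bars of the percentage that each gene supplied of the summed TPM of its class (vertical axis, 0 to 100%) in VSMCs and mcPCs, for 4 classes. The leading gene differs between the cell types for the β subunits (Atp1b1 48.0% against Atp1b2 82.5%), the FXYD genes (Fxyd1 93.8% against Fxyd5 52.3%) and the P5 ATPases (Atp13a1 50.8% against Atp13a5 89.9%), and is the same for the plasma membrane calcium pumps (Atp2b4).

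FXYD proteins are small single-span partners that tune the Na,K-ATPase. By normalized counts all 4 with a row were at least 2-fold apart, a pair in each direction. The same limit was passed by 22.0% of the 14607 genes in favour of mcPCs and by 13.9% in favour of VSMCs. For Fxyd6 the call depended on the scale, since counts set to equal totals gave a log2 ratio of 0.94, within 2-fold. Fxyd1 (phospholemman, ENSRNOG00000021079), the regulator of heart and smooth muscle, had 1008 TPM in VSMCs against 62.1 in mcPCs. Its normalized counts were 4.60-fold higher in VSMCs (9509 and 2066, log2 ratio -2.20, interval -2.25 to -2.16). Fxyd5 (dysadherin, ENSRNOG00000021062), known from epithelia, endothelium and leukocytes, had 22.4 TPM in VSMCs against 78.4 in mcPCs, a 12.1-fold difference of normalized counts (424 and 5142, log2 ratio 3.60, interval 3.53 to 3.67).

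Fxyd7, known as a brain isoform, was lower in mcPCs, with 35.9 and 3.31 TPM (log2 ratio -1.68, interval -1.84 to -1.52). Fxyd6 had 7.91 and 6.28 TPM, and its log2 ratio of 1.50 (interval 1.40 to 1.60) became -0.33 on the TPM ratio as it stands, a scale that lowers most genes in mcPCs. Fxyd1 supplied 93.8% of the FXYD transcripts in VSMCs and 41.4% in mcPCs, where Fxyd5 led with 52.3%. Fxyd5, Fxyd7 and Fxyd1 follow each other in RefSeq with no protein-coding gene between them, and the outer genes of this row differed in opposite directions. Endothelial cells and macrophages also express Fxyd5. Of the 10 endothelial markers with a row 7 were at least 2-fold higher in mcPCs, as were 22.0% of all listed genes. Cd34 was the furthest (log2 ratio 6.54), whereas Esam (0.43), Slc2a1 (-0.50) and Flt1 (-0.78) lay within 2-fold. All 3 macrophage markers with a row were higher in mcPCs (log2 ratios 4.26 to 6.99), and the part of these markers in the value of Fxyd5 was not tested.

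Of the 4 calcium pumps of the plasma membrane, the more abundant pair, Atp2b4 and Atp2b1, was higher in VSMCs and the scarce pair, Atp2b2 and Atp2b3, in mcPCs. Among all listed genes that reached 5 TPM in either cell type, 16.8% were at least 2-fold higher in VSMCs. Among those under 5 TPM in both, 46.3% were at least 2-fold higher in mcPCs. Atp2b4 (PMCA4, ENSRNOG00000003031) had 245 TPM in VSMCs against 8.93 in mcPCs, and normalized counts of 55848 and 7185, which is 7.77-fold higher in VSMCs (log2 ratio -2.96, interval -2.98 to -2.94). Atp2b1 (PMCA1), the general isoform, had 52.4 and 6.02 TPM and was 2.49-fold higher in VSMCs (log2 ratio -1.31, interval -1.36 to -1.27). Pooled over the 4 genes, the class was 5.66-fold higher in VSMCs by normalized counts per kilobase. The difference was larger for Atp2b4, so that it exceeded Atp2b1 4.67 times in VSMCs and 1.48 times in mcPCs.

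The neuronal isoforms Atp2b2 and Atp2b3 were scarce, with at most 0.272 TPM in either cell type. Their log2 ratios were 1.26 and 2.07 (interval 1.74 to 2.41). That of Atp2b2 was 0.55 on counts scaled to an equal total and -0.65 on the TPM ratio as it stands. Atp2c1, which loads calcium and manganese into the Golgi, had 62.4 TPM in VSMCs against 15.7 in mcPCs, and its log2 ratio of -0.17 (interval -0.21 to -0.14) was among the smallest of the family. Atp7a, which pumps copper into the secretory pathway and out of the cell, had 7.35 and 1.62 TPM (log2 ratio -0.49, interval -0.56 to -0.42), on effective lengths of 5484 and 7130 bases that differ between the cell types. Atp7b, the copper pump of liver, stayed under 0.12 TPM.

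Among the flippases Atp10d, Atp10a and Atp8b2 led in VSMCs, with 67.4, 52.8 and 47.1 TPM. Atp10d (26.2% of the class) and Atp8b2 (22.1%) also led in mcPCs, followed there by Atp11b (12.9%). Atp10a (ENSRNOG00000056228), a phosphatidylcholine flippase of the plasma membrane, had 2.03 TPM in mcPCs. Its normalized counts were 7466 and 988, 7.56-fold higher in VSMCs (log2 ratio -2.92, interval -2.98 to -2.86), and its share of the class was 24.4% in VSMCs and 5.27% in mcPCs.

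The other flippases of at least 5 TPM lay within 2-fold. Atp10d, a glucosylceramide flippase, came closest to the limit, with 10.1 TPM in mcPCs and a log2 ratio of -0.92 (interval -0.95 to -0.89), and Atp8b2 had 8.52 TPM in mcPCs (log2 ratio -0.65). The gene ID that the table pairs with Atp8b2 belongs to Ubap2l in RefSeq, and the row is taken by its symbol. The phosphatidylserine flippases Atp11a and Atp11b, and also Atp9b, had log2 ratios between -0.25 and 0.32. Their abundance ran from 10.8 to 14.3 TPM in VSMCs and from 3.46 to 4.94 TPM in mcPCs. Over the class, normalized counts per kilobase were 1.62-fold higher in VSMCs.

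Scarce flippases showed the largest ratios of the class. Atp8b4 had 0.362 TPM in VSMCs against 2.80 in mcPCs, from 67 and 1029 reads (log2 ratio 4.70, interval 4.34 to 5.07), and Atp8a1 0.106 and 0.691 TPM, from 37 and 454 reads (log2 ratio 4.49, interval 4.00 to 5.01). Atp8b3 differed in the opposite direction, with 1.35 and 0.0247 TPM and 23 reads in mcPCs (log2 ratio -3.98, interval -4.65 to -3.39). Markers of macrophages (Cd68 from 0.210 to 2.94 TPM) and of neurons (Snap25 from 0.392 to 3.18 TPM) were higher in mcPCs at levels like those of Atp8b4 and Atp8a1, and their part in these values was not tested. The remaining members, Atp1b4, Atp7b, Atp8b1, Atp8b5p and Atp10b, had log2 ratios between -0.99 and 1.81. Atp8b1, at -0.99, lay just inside the 2-fold limit, and Atp10b, at 1.02, just beyond it on 11 and 12 reads.

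The size of every difference depended on the scale, and some calls did too. On each of 5 scales Atp13a5, Atp13a4, Atp8b4, Atp8a1 and Fxyd5 were at least 2-fold higher in mcPCs, and Atp1b1, Atp8b3, Atp2b4, Atp10a, Fxyd1, Fxyd7 and Atp2b1 at least 2-fold higher in VSMCs. The log2 ratio of Atp13a5 was 7.30 on TPM relative to the median gene, 6.76 on counts set to equal totals and 5.50 on TPM as it stands, and that of Atp1b1 ran from -4.76 to -6.76. Atp1a4 (0.84) and Atp2b3 (0.33) lay within 2-fold on TPM as it stands.

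**Figure D5:**
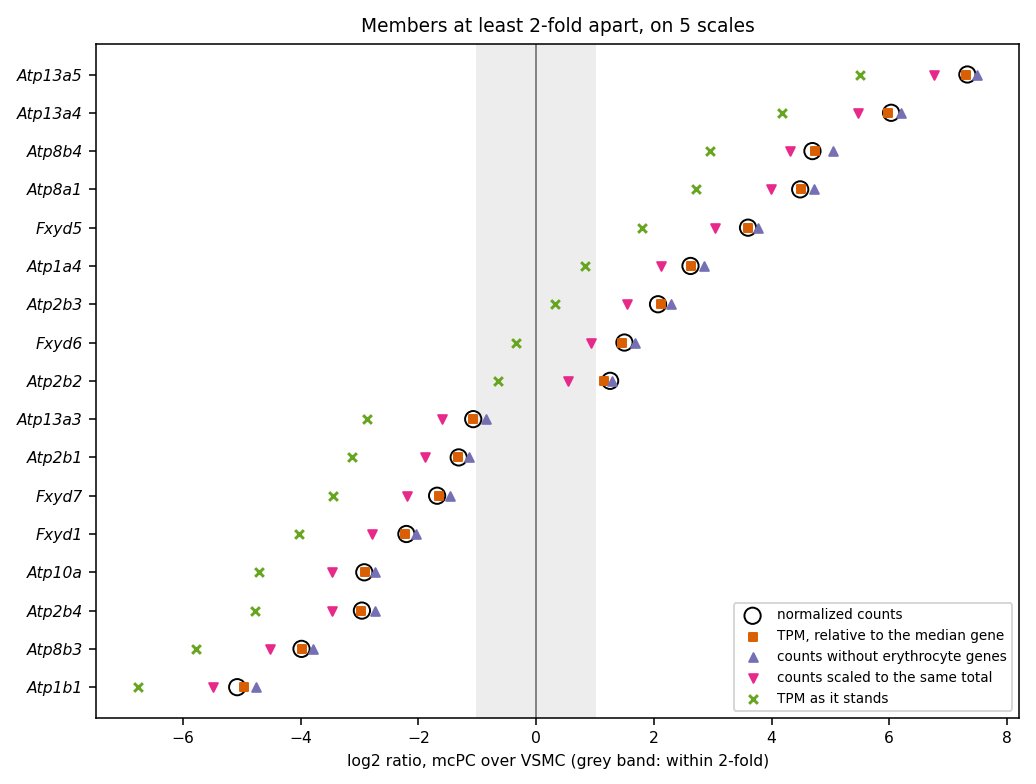
log2 ratio, mcPC over VSMC (horizontal axis), of 17 members described singly that were at least 2-fold apart, on 5 scales shown by different markers, with the band within 2-fold shaded. TPM as it stands (crosses) lies lowest for every gene and places Fxyd6 (-0.33) and Atp2b2 (-0.65) below 0, whereas Atp13a5 stays between 5.50 and 7.50.

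Genes that work with these pumps were listed as well. Of the P-type ATPases outside the rule, the reticular calcium pumps Atp2a2 and Atp2a3 were 10.0-fold and 7.41-fold higher in VSMCs (1089 and 30.8 TPM, 184 and 7.29 TPM), and Atp2a1 stayed under 0.8 TPM. Phospholamban (Pln), an inhibitor of the Atp2a2 pump, had 387 TPM in VSMCs against 0.255 in mcPCs. Sodium-calcium exchangers use the gradient of the Na,K-ATPase, and 2 of those listed were higher in VSMCs. Slc8a1 had 135 and 2.61 TPM (log2 ratio -3.88), and Slc8a2 58.5 and 0.888 TPM (log2 ratio -4.22). Of the 7 exchanger genes listed, 2 were at least 2-fold higher in VSMCs, 1 in mcPCs (the chloride cotransporter Slc12a2, log2 ratio 1.73) and 4 within 2-fold, among them Slc8a3 (-0.20), Slc8b1 (-0.15) and Slc24a3 (0.18). Of all listed genes, 13.9% were at least 2-fold higher in VSMCs and 22.0% in mcPCs. The partner proteins Bsg and Nptn, which bind plasma membrane calcium pumps, had log2 ratios of 0.65 and -0.56.

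Tmem30a, the β subunit that most P4 flippases need to leave the endoplasmic reticulum, had 135 and 27.8 TPM and lay within 2-fold (log2 ratio -0.47, interval -0.51 to -0.43), and Tmem30c stayed under 0.81 TPM. Of 13 listed genes of polyamine metabolism, 4 (30.8%) were at least 2-fold higher in mcPCs and 2 (15.4%) in VSMCs. These shares are near those of all listed genes, 22.0% and 13.9%. The median log2 ratio of the 13 was 0.29 against 0.01 for all listed genes. Among those higher in mcPCs were Odc1, which makes putrescine (15.0 and 34.6 TPM, log2 ratio 2.99, interval 2.93 to 3.05), and Smox, which oxidises spermine (5.29 and 23.9 TPM, log2 ratio 4.04, interval 3.95 to 4.13). Sat1, which acetylates polyamines for export, and Oaz2, an inhibitor of Odc1, were higher in VSMCs, both with log2 ratios of -1.51.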

How the data were processed

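RNA of VSMCs and mcPCs (3 samples each) was sequenced, each library in 4 runs. The authors filtered reads with Eoulsan, estimated abundance with Salmon (version 0.8.0 per the labels) on the cDNA set of Rnor_6.0, summed to genes with tximport and normalized with DESeq2. They kept genes with a read in every sample. For its final set the paper also removed genes under 0.8 TPM in VSMCs and the transcripts most enriched in mcPCs, mainly of erythrocytes. The aim was to filter out transcripts of contaminating cells. Genes of both kinds remain in the deposited table and were kept here. Atp13a4, Atp8b4, Atp8a1, Atp1a4, Atp2b2 and Atp2b3 are among the members under 0.8 TPM in VSMCs. The deposited table gives the authors' means of each cell type. TPM values are the authors' mean abundances. The authors' mean estimated counts are means per run and were multiplied by 12 runs, since 69.8% and 71.5% of them are then whole within 0.01. The deposited normalized counts are signal values, counts divided by DESeq2 factors. Fold changes, standard errors and p-values of the authors' own comparison were not used.

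Ratios were taken from mean normalized counts without a pseudocount or filter, with a threshold of 2-fold. Members were described singly where they reached 5 TPM, or 2-fold with 120 reads, or were Atp13a genes. Partner genes were named at 4-fold and 5 TPM, with Tmem30 and Atp2a genes, and others were chosen after their values were seen. Members and lists were chosen with earlier results of these data known. Alternatives were other scales, a pseudocount of 1, filters on TPM, and stricter thresholds. The 37 members matched RefSeq by symbol. Some members enter the counts and class totals but are not reported here. Steps were run on simulated reads with counting error only, which cannot check the authors' normalization or the spread between animals. Intervals came from scipy 1.17.1 and figures from matplotlib 3.10.9, under Python 3.11.15 with pandas 2.3.3 and numpy 2.4.6.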

Additional observations from a re-analysis of the deposited data

How the results depend on the processing

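In all, 14 members were at least 2-fold higher in mcPCs. This number became 6 with TPM taken as it stands, against 8.17% of all listed genes. It became 4 of the 26 members with at least 0.8 TPM in VSMCs (13.1% of such genes), 6 of the 28 with at least 1 TPM in either cell type (16.1%) and 9 at 4-fold (12.4%). The limit of 0.8 TPM is the one the paper set for its final set of genes. The number at least 2-fold higher in VSMCs was 8, and it became 23 on the TPM ratio as it stands, where 74.8% of all listed genes were, and 5 at 4-fold (5.72%). Other settings moved these numbers by less than 1.5 times. The TPM ratio as it stands reversed Fxyd6 (-0.33), Atp2b2 (-0.65), Atp7b (-0.55) and Atp10b (-0.77), and no other setting reversed a member at least 2-fold apart. On that scale the median gene lies at -1.79, and relative to the median gene the same TPM gave 1.46, 1.15, 1.24 and 1.03 for these 4 genes. Percentages of a class moved by at most 1.15 points with counts divided by effective length, and by up to 24.0 points with counts not divided by length. The largest move was that of Atp1b2 in VSMCs, from 43.6% to 67.5% of the β subunits, with Atp1b1 going from 48.0% to 24.9%. Without division by length Atp1b2 thus led the β subunits in VSMCs as well as in mcPCs (89.6%). No paired analysis was possible because the table holds no value per sample, and for the same reason no sample was left out in turn. Depth limits the scarce members, of which Atp10b has 11 and 12 reads, and intervals leave out the spread between animals and the uncertainty of assigning reads to related genes.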

Other observations

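Of 7 listed genes of copper handling, 6 lay within 2-fold between the cell types. The exception was Slc31a2, a copper transporter of endosomes, with 6.12 TPM in VSMCs against 3.55 in mcPCs and a log2 ratio of normalized counts of 1.05 (counting interval 0.94 to 1.17). The copper chaperone of cytochrome oxidase, Cox17, had 223 and 37.7 TPM and a log2 ratio of -0.76. The median of the list was 0.05, against 0.01 for all listed genes, of which 22.0% were at least 2-fold higher in mcPCs and 13.9% in VSMCs.

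Scramblases, which undo the work of the flippases by letting phospholipids cross the membrane in both directions, were split. Ano6, the calcium-activated scramblase, had 123 TPM in VSMCs against 15.5 in mcPCs (log2 ratio -1.17, interval -1.19 to -1.14). Plscr1, known as an interferon-induced gene, had 91.9 and 53.8 TPM (log2 ratio 1.04, interval 0.995 to 1.08), at the 2-fold limit. Of the 6 genes listed, 2 reached 2-fold in favour of mcPCs, 1 in favour of VSMCs and 3 neither, against 22.0% and 13.9% of all listed genes in favour of mcPCs and VSMCs. These genes were singled out after their values were seen.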
